A study of Mus musculus with 24 samples.

Results

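Precursor cells of brown and white fat were compared before adipogenic induction, in control cells at day 0 (d0). The comparison holds 6 of the 24 libraries of the series, 3 of brown adipose tissue (BAT) cells and 3 of visceral white adipose tissue (vWAT) cells. It covers 13139 of the 49452 genes in the deposited table, those that reached a value of 1 in 3 or more of the 6 libraries. Values are FPKM, fragments scaled by transcript length and by the mapped fragments of the library. Just inside this limit lay *Lnx1* with 0.738, 0.715 and 0.998 FPKM in BAT and 1.04, 1.00 and 1.27 FPKM in vWAT. Just outside it lay *Cfap45* with 0.306, 0.270 and 0.226 FPKM in BAT and 0.999, 1.59 and 2.35 FPKM in vWAT.

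Both groups were stromal-vascular fraction (SVF) cells, the mixed cells that remain when the lipid-filled adipocytes of digested fat are removed, from male C57BL/6 mice of 6 to 8 weeks without a genetic change. BAT came from between the shoulder blades and vWAT from the perigonadal depot. All cells were cultured and received a non-targeting siRNA (siCtrl) by nucleofection. The sample titles call this group siKO, and the siRNA field of the labels gives the non-targeting control. BAT tissue was pooled between animals where cells were few, and BAT digestion used Dispase I in addition. A further 2 pairs of groups are used for comparison, BAT and vWAT cells at d0 that received an siRNA against the lincRNA *H19* (siH19), and siCtrl cells of both depots after 3 days of adipogenic induction (d3), for which the induction media also differed between depots. Depot and library batch coincide, since all 3 BAT libraries carry one batch name and all 3 vWAT libraries another, so an effect of depot and an effect of batch, pooling or digestion cannot be told apart. No source says that replicates came from separate animals, and p-values then measure the spread between these libraries, which may be technical.

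Brown adipocytes burn lipid to make heat, whereas white adipocytes store it. Interscapular brown fat descends largely from the paraxial mesoderm that also forms dorsal muscle and dermis, and visceral fat lies in the abdominal cavity under a mesothelium, the flat cell layer that lines it. Homeobox (*Hox*) genes, which are expressed along the head-to-tail axis in the embryo, often stay at position-dependent levels in cultured fibroblasts and fat precursors.

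The number of fragments behind each library is not part of the table. Relative depth, read from the steps between low values that libraries share, was 0.914 to 1 in BAT and 1.05 to 1.16 in vWAT, with BAT replicate 1 as the unit. In all, 12602 to 12657 genes reached an FPKM of 1 in a BAT library against 13012 to 13099 in a vWAT library. Pearson r across genes on log2(FPKM + 1) was 0.988 to 0.990 between replicates and 0.971 to 0.974 between depots, and no library stood apart. In each of the 6 libraries 22 to 34 genes were listed at 0 although their median over the 6 was at least 5 FPKM, so a 0 is not read as absence. The SVF label was checked against marker genes. The 30 precursor and stromal markers were all tested, and their summed value was 2958 to 3067 FPKM in BAT and 1984 to 2084 FPKM in vWAT. Among them were *Ly6a*, at 543 ± 40.6 FPKM (SD, n = 3) in BAT and 321 ± 35.9 FPKM in vWAT, and *Pdgfra*, at 50.1 ± 2.21 and 115 ± 3.11 FPKM, but also *Cd24a*, at 0.749 ± 0.0864 and 9.31 ± 0.926 FPKM. Genes of adipocytes were expressed as well before induction, as the 30 common adipogenic genes summed to 4288 to 4648 FPKM in BAT and 6136 to 6219 FPKM in vWAT. Of 20 macrophage genes, whose summed values were 177 to 222 FPKM in BAT and 412 to 472 FPKM in vWAT, *Ptprc*, the common leukocyte antigen, lay at 0.766 ± 0.195 and 1.67 ± 0.220 FPKM. Of 18 epididymal epithelium genes none reached the limit, and their sum was 0.401 to 0.943 FPKM in BAT and 2.53 to 4.06 FPKM in vWAT.

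Of the 13139 genes, 4096 (31.2%) differed between the depots (adjusted p under 0.05 and 1.3-fold or more), 1343 of them (10.2%) higher in BAT and 2753 (21.0%) higher in vWAT. Log2 differences are BAT minus vWAT and were taken on log2(FPKM + 1), so that changes of genes with low values are understated. The median over all genes was -0.13 on the deposited scale and -0.01 after trimmed-mean scaling of the libraries. With that scaling 1870 genes were higher in BAT and 1916 in vWAT. The surplus of calls in vWAT at the 1.3-fold limit thus rests on the deposited scale. On that scale a change of at least 2-fold was called for 1252 genes, 414 higher in BAT and 838 in vWAT. Of the called genes 118 reached 8-fold, 34 in BAT and 84 in vWAT. The 2-fold and 8-fold counts were not repeated with trimmed-mean scaling. In 58.8% of all tested genes the 3 libraries of one depot lay all on one side of the other 3. Where a gene is listed at 0 in every library of a depot (38 tested genes), its level in the other depot is given and no fold change. Named beside the largest changes are members of gene lists, which were chosen with the values known. Counts of list members below stand beside these shares of all genes, 10.2% higher in BAT and 21.0% in vWAT. In bulk RNA, fewer cells of a type and less RNA per cell cannot be told apart.

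**Figure D1:**
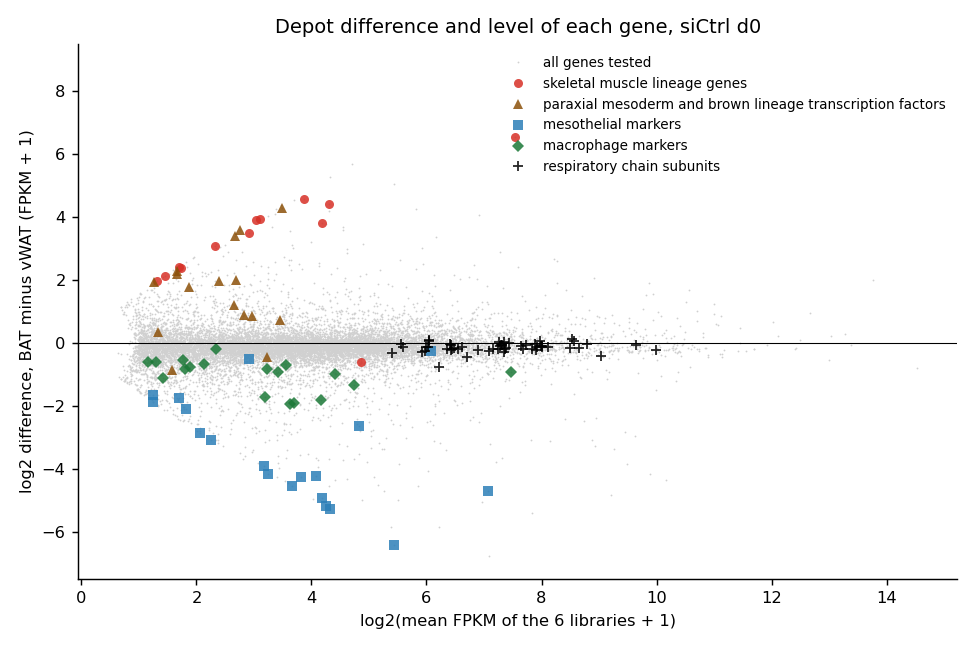
Depot difference (y axis, log2 scale, BAT minus vWAT) against mean level (x axis, log2 of the mean FPKM of the 6 libraries plus 1) of the 13139 genes tested, with 5 gene lists coloured. There, 12 of 13 skeletal muscle genes lie above 0, 19 of 19 mesothelial genes and 18 of 18 macrophage genes below it, and the respiratory chain subunits close to it. The position of genes listed at 0 in a depot depends on the pseudocount of 1.

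*H19*, the lincRNA whose silencing the study examined and which is expressed from the maternal allele, is encoded on chromosome 7, minus strand, positions 142575529 to 142578143 (GRCm38). It was listed at 108, 160.4 and 122 FPKM in the 3 BAT libraries and at 12.3, 11.3 and 11.6 FPKM in the 3 vWAT libraries. The groups did not overlap, and the log2 difference was 3.35 (SE 0.139, adjusted p = 7.9e-06). Its neighbour *Igf2*, a growth factor gene of the same imprinted cluster that is expressed from the paternal allele, was also higher in BAT, with 37.4, 46.4 and 43.8 FPKM against 3.90, 4.13 and 5.42 FPKM (log2 difference 2.99, SE 0.128, adjusted p = 8.8e-06). In siH19 cells at d0, *H19* was at 2.82, 5.20 and 5.05 FPKM in BAT and 1.23, 0.630 and 1.76 FPKM in vWAT, below every siCtrl library of the same depot.

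Genes of skeletal muscle made up 7 of the 12 genes with the largest differences in favour of BAT. *Mylpf*, the regulatory light chain of fast muscle myosin (chromosome 7 from 127208890 to 127214298), was at 335, 483 and 281 FPKM in BAT and 3.43, 2.44 and 2.59 FPKM in vWAT (log2 difference 6.56, SE 0.204, adjusted p = 2.4e-06). *Myl1*, an essential light chain of fast fibres, was at 71.3, 99.2 and 79.3 FPKM in BAT and 1.65, 0.952 and 2.05 FPKM in vWAT (log2 difference 5.06, SE 0.192, adjusted p = 5.4e-06). *Myog*, the transcription factor that drives myoblasts into fusion, was at 11.6, 19.5 and 11.9 FPKM in BAT and listed at 0 in all 3 vWAT libraries (adjusted p = 1.5e-05). In each of these genes BAT replicate 2 was the highest library and every BAT library lay above every vWAT library. The promoters of *Mylpf* and *Myl1*, and below those of *Calca* and *Upk3b*, are shown because these genes head their direction among those with a RefSeq entry, apart from *Gpr153*, whose level is uncertain as given below. Each is the stretch of 250 bases before the RefSeq start (GRCm38.p6), and capitals mark CAGCTG, a form of the E-box bound by myogenic factors, and the MEF2 motif.
*Mylpf*, plus strand, chr7:127211358-127211607: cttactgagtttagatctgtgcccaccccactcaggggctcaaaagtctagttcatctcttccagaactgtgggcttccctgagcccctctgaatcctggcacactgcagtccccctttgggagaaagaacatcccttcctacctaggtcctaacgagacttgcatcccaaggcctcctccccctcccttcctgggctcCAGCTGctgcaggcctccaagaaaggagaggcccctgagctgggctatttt
*Myl1*, minus strand, chr1:66945057-66945306: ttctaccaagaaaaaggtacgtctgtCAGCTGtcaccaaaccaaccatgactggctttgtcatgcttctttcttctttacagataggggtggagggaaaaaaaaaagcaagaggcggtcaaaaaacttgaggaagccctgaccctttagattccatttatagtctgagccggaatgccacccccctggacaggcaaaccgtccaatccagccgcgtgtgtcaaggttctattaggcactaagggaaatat
Both hold one CAGCTG, and they hold 1 and 6 CpG dinucleotides respectively. Over 32536 promoter windows of this length 13.1% hold CAGCTG and 2.89% the MEF2 motif, and the median number of CpG is 6. Of the 30 genes that head the BAT direction 21 had an entry, and 4 of these hold CAGCTG, *Mylpf*, *Myl1*, *Tnni1* and *Atp2a1*, and 1, *Myh1*, the MEF2 motif. Both motifs read the same on either strand, and the annotated spans of *Mylpf* and *Myl1* reach beyond these RefSeq starts. A match is only a match of letters, and these counts were made after the values had been seen.

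Of 20 skeletal muscle lineage genes 13 were tested, 12 of them were higher in BAT and 1 in vWAT, with a median log2 difference of 3.48 (3.60 above the median of all genes). Among the 13, 9 stayed under 1 FPKM in every library of one depot and so passed the limit only through the other, where they had to be higher. The summed value of the list was, from the lowest to the highest library, 435, 493 and 729.7 FPKM in the BAT libraries and 34.7 to 44.4 FPKM in vWAT, so this sum also varied between BAT libraries. Much of it was *Mylpf* in BAT and, in vWAT, *Des* at 33.8 ± 4.62 FPKM, which is not particular to skeletal muscle. The sarcomere genes included troponins, with *Tnnt3* at 33.7, 48.5 and 27.9 FPKM in BAT and 0.494, 0.688 and 1.09 FPKM in vWAT and *Tnnc2* at 22.8, 33.7 and 24.5 FPKM and 0.418, 0 and 0.0835 FPKM. *Tnni1*, the slow-fibre troponin I, was at 33.1, 47.3 and 29.1 FPKM in BAT and 1.07, 1.24 and 0.758 FPKM in vWAT. *Myh3*, the embryonic myosin heavy chain, was at 12.5, 20.8 and 12.5 FPKM in BAT and 0.0626, 0.0194 and 0 FPKM in vWAT. *Myh1* and *Myh8* were at 7.99 ± 1.15 and 4.45 ± 1.01 FPKM in BAT and 0.0512 ± 0.0592 and 0.0221 ± 0.0193 FPKM in vWAT. These heavy chain genes are close copies, between which the authors' software shares reads by a model, so their single levels are uncertain. *Myod1*, which sets the myogenic fate, was at 2.76, 4.597 and 3.05 FPKM in BAT. *Pax7* and *Myf5*, which mark muscle stem cells and early myoblasts, were at 0.00771 to 0.0937 FPKM in BAT and were not tested. The member higher in vWAT was *Des*, desmin (22.0 ± 5.41 and 33.8 ± 4.62 FPKM, adjusted p = 0.029), a filament gene that smooth muscle and pericytes also use. That call was lost under trimmed-mean scaling and without BAT replicate 1 or 3 or vWAT replicate 1 or 3 (adjusted p = 0.064 to 0.088), which leaves no member higher in vWAT.

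The matrix genes *Comp* and *Thbs4* were also among the 12 largest differences in favour of BAT. *Comp*, a matrix protein of cartilage and tendon, was at 15.6, 15.9 and 19.3 FPKM in BAT and 0.264, 0 and 0.0563 FPKM in vWAT. *Thbs4*, a thrombospondin of tendon and muscle, was at 17.3, 17.6 and 20.3 FPKM in BAT and 0.0404, 0.175 and 0.166 FPKM in vWAT. Chosen after their values were seen and from no list, *Tnmd*, a tendon membrane protein, was at 8.45 ± 0.476 and 0.150 ± 0.0266 FPKM, and *Sp7*, a transcription factor of osteoblasts, at 17.5 ± 0.454 and 0.436 ± 0.181 FPKM. Other genes of bone and cartilage described below were mixed. *Aspn* and *Sox9* were higher in BAT, *Runx2* was not called and *Spp1* was higher in vWAT. The levels of 2 genes of this direction are uncertain. *Gpr153*, an orphan receptor gene, was at 49.1, 50.3 and 52.0 FPKM in BAT and listed at 0 in the 3 vWAT libraries. In siH19 cells of vWAT it was listed at 0, 0 and 45.9 FPKM, so that its zeros do not follow the depot, and at d3 it was called higher in vWAT. *Rpl39l*, at 18.8 ± 1.05 FPKM in BAT and 0.0360 ± 0.0624 FPKM in vWAT, is a near copy of the ribosomal protein gene *Rpl39*, with which it may share reads.

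**Figure D2:**
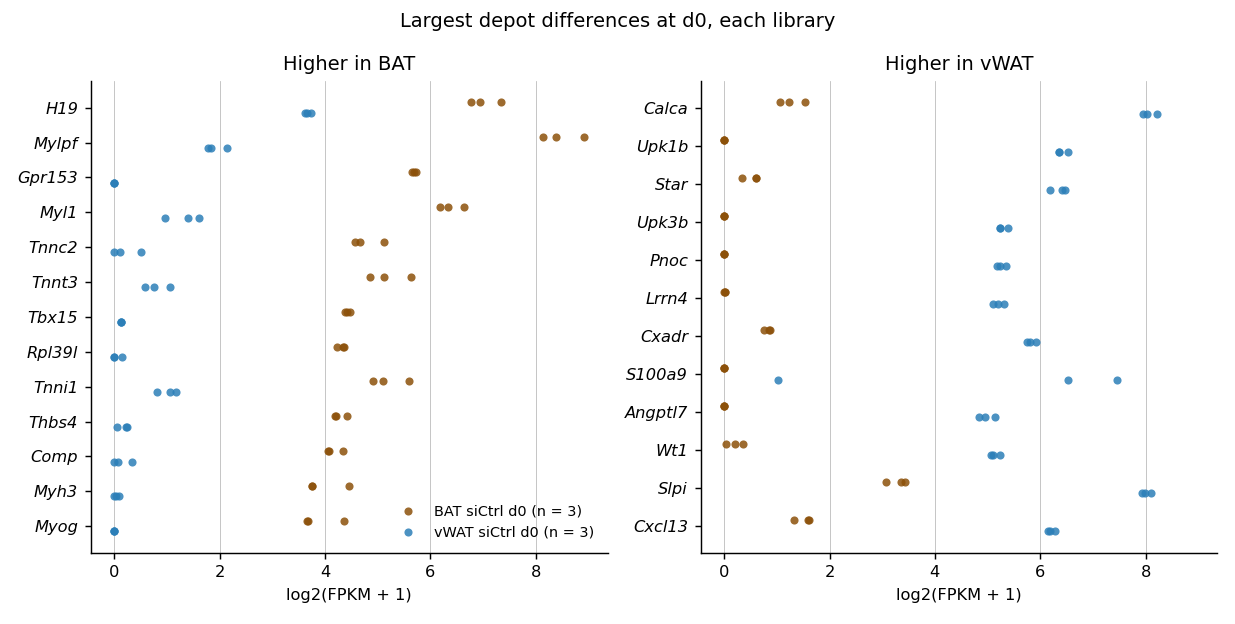
Level of *H19* and of the 12 genes with the largest difference in each direction, as log2(FPKM + 1) on the x axis, with a point for each library (n = 3 per depot). The depots do not overlap for any gene shown, since they were chosen for that, and *S100a9* is spread from 1.04 to 175 FPKM among the vWAT libraries.

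Transcription factors of the paraxial mesoderm and the brown lineage were mostly higher in BAT. Of 32 such genes 16 were tested, 13 were higher in BAT and 2 in vWAT, with a median log2 difference of 1.86 (1.78 without *Six2*, which was listed at 0 in vWAT). Among the 16, 7 passed the limit through one depot only. *Tbx15*, a T-box factor of dorsal skin, bone and brown fat, was at 20.3, 19.7 and 21.3 FPKM in BAT and 0.0894, 0.0893 and 0.0865 FPKM in vWAT (log2 difference 4.30, SE 0.0710, adjusted p = 3.4e-07). The LIM homeobox gene *Lhx8*, often used to mark brown fat, was at 10.7, 12.7 and 10.97 FPKM in BAT and 0.0215, 0 and 0.0734 FPKM in vWAT. *Zic1*, a zinc finger factor used in the same way, was at 3.91, 4.17 and 4.66 FPKM in BAT and 0, 0.195 and 0.0319 FPKM in vWAT. *Shox2*, a homeobox gene of limb and trunk, was at 9.02, 14.3 and 8.78 FPKM in BAT and 0.189, 0 and 0.0473 FPKM in vWAT. The highest vWAT value among these 4 genes was 0.195 FPKM. *En1*, which marks the dermomyotome from which brown fat arises, was at 10.1, 8.33 and 9.33 FPKM in BAT and 1.51, 1.57 and 1.66 FPKM in vWAT (log2 difference 1.99, SE 0.0889, adjusted p = 1e-05). *Meox1* and *Meox2*, homeobox genes of the somites, were at 4.65 ± 0.447 and 4.17 ± 0.733 FPKM in BAT and 0.642 ± 0.152 and 0.135 ± 0.0287 FPKM in vWAT. *Ebf2* and *Ebf3*, factors of the early B-cell factor family of which EBF2 selects brown fat enhancers, were at 8.24 ± 0.679 and 7.35 ± 0.445 FPKM in BAT and 4.002 ± 0.166 and 1.15 ± 0.189 FPKM in vWAT. *Tbx18* (log2 difference 0.84, SE 0.0849, adjusted p = 0.00032) and *Foxc1* (log2 difference 1.195, SE 0.0757, adjusted p = 4.3e-05) followed the same direction. The 2 members higher in vWAT were *Dmrt2* (log2 difference -0.87, SE 0.131, adjusted p = 0.002) and *Eya2* (log2 difference -0.44, SE 0.136, adjusted p = 0.034). *Eya2* lost its call under trimmed-mean scaling (adjusted p = 0.11) and without BAT replicate 2 or 3 or vWAT replicate 2 or 3 (adjusted p = 0.071 to 0.0996), which leaves 1 member higher in vWAT. Many of these factors also act in the muscle lineage, whose genes moved with the depot as given above, and the part of muscle cells in these differences was not tested.

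The other side of this comparison was formed by transcription factors of visceral and intermediate mesoderm. Of 28 such genes 20 were tested, 12 were higher in vWAT and 4 in BAT, with a median of -0.92 (-0.79 relative to all genes), and 9 of them passed the limit through one depot only. *Wt1*, the Wilms tumour factor of mesothelium and urogenital mesoderm (chromosome 2 from 105126529 to 105173616), was at 0.0199, 0.145 and 0.283 FPKM in BAT and 33.3, 32.4 and 36.7 FPKM in vWAT (log2 difference -4.94, SE 0.106, adjusted p = 6.3e-07). *Tcf21*, a helix-loop-helix factor of visceral stroma, was at 0.854, 0.605 and 0.374 FPKM in BAT and 36.6, 36.3 and 37.4 FPKM in vWAT (log2 difference -4.56, SE 0.115, adjusted p = 1.1e-06). *Bnc1*, a zinc finger gene of mesothelium, was listed at 0 in the 3 BAT libraries and at 6.88, 7.37 and 8.49 FPKM in vWAT. The 3 GATA factors of lateral mesoderm had the same direction, with *Gata6* at 6.85 ± 0.391 and 32.1 ± 3.26 FPKM, *Gata4* at 0.0565 ± 0.0663 and 2.45 ± 0.145 FPKM and *Gata5* at 0.00956 ± 0.0166 and 2.05 ± 0.575 FPKM in BAT and vWAT. The nuclear receptors *Nr2f1* and *Nr2f2*, known as COUP factors, were at 5.12 ± 1.07 and 12.6 ± 0.501 FPKM in BAT and 15.2 ± 2.17 and 40.2 ± 1.79 FPKM in vWAT. The other 4 called members were higher in BAT, among them *Irx3*, *Irx5* and *Sox9*. *Irx3* and *Irx5*, which lie in the same homeobox cluster, were at 3.28 ± 0.0991 and 2.07 ± 0.166 FPKM in BAT and 0.654 ± 0.155 and 0.0528 ± 0.0357 FPKM in vWAT. *Sox9*, a factor of cartilage, had a smaller difference (log2 difference 0.51, SE 0.0592, adjusted p = 0.00064).

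*Hox* genes were split by their position in the clusters. Of 23 genes of paralogue groups 1 to 8, 20 were tested, 6 were higher in BAT, 4 in vWAT and 10 were not called. Of 16 genes of groups 9 to 13, 7 were tested, 4 were higher in vWAT and 2 in BAT. Among the 7, 4 stayed under 1 FPKM in every library of one depot and so passed the limit only through the other, where they had to be higher. With a minimum of 5 FPKM, 1 gene of groups 1 to 8 was called higher in BAT and 3 in vWAT. For groups 9 to 13 these numbers were 1 and 0. In the *Hoxa* cluster *Hoxa2*, *Hoxa3* and *Hoxa4* were higher in BAT, *Hoxa5* was not called and *Hoxa6*, *Hoxa7*, *Hoxa9* and *Hoxa10* were higher in vWAT. *Hoxa3* was at 10.3, 12.6 and 12.6 FPKM in BAT and 5.98, 6.09 and 4.798 FPKM in vWAT (log2 difference 0.95, SE 0.117, adjusted p = 0.00083). *Hoxa7* was at 1.44, 1.38 and 1.53 FPKM in BAT and 5.39, 5.16 and 5.33 FPKM in vWAT (log2 difference -1.36, SE 0.0738, adjusted p = 2.2e-05). *Hoxa9* was at 0.0144, 0.0437 and 0.220 FPKM in BAT and 2.24, 2.21 and 2.81 FPKM in vWAT. *Hoxa5*, which lies between them, was at 13.5, 14.9 and 14.1 FPKM in BAT and 12.6, 9.33 and 10.6 FPKM in vWAT, with a log2 difference of 0.37 just under the 1.3-fold limit. It was called higher in BAT under trimmed-mean scaling and without vWAT replicate 1 (log2 difference 0.47). In the *Hoxc* cluster *Hoxc6*, *Hoxc8*, *Hoxc9* and *Hoxc10* were higher in vWAT, *Hoxc8* with 8.44, 7.46 and 7.57 FPKM against 21.9, 21.0 and 20.3 FPKM, whereas *Hoxc10* was listed at 0 in BAT and at 1.34, 1.63 and 1.07 FPKM in vWAT. The last gene of this cluster, *Hoxc13*, a gene of skin and hair, had the opposite direction and was at 6.34, 6.87 and 5.38 FPKM in BAT and 2.00, 1.75 and 2.06 FPKM in vWAT (log2 difference 1.29, SE 0.104, adjusted p = 0.00012). In the *Hoxb* cluster *Hoxb9* (log2 difference 0.59, SE 0.118, adjusted p = 0.0071) and *Hoxb5* were higher in BAT, but *Hoxb5* (log2 difference 0.45) missed the threshold without BAT replicate 1 or 3 or vWAT replicate 1 or 2 (adjusted p = 0.061 to 0.069). *Hoxc5* was higher in BAT (log2 difference 0.43) and fell under the 1.3-fold limit without vWAT replicate 1 (0.35). Most of these levels are low, *Hox* clusters hold antisense transcripts, and whether the authors' software used strand is not given.

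**Figure D3:**
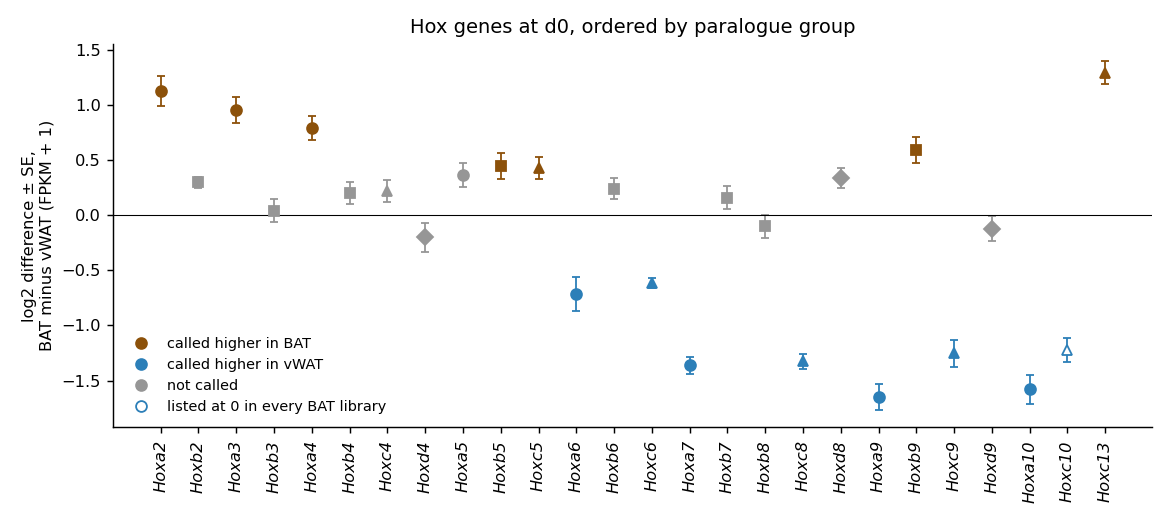
Log2 difference (BAT minus vWAT, with its SE, n = 3 per depot) of 26 *Hox* genes tested in paralogue groups 2 to 13, ordered by group from left to right. Symbols give the cluster (circle a, square b, triangle c, diamond d). Of 11 genes of groups 2 to 5, 10 lie above 0, and 5 of these were called higher in BAT. From group 6 on, 8 genes were called higher in vWAT, and those called higher in BAT included *Hoxb9* and *Hoxc13*. This cut after group 5 differs from that of the lists, after group 8, and was made with the values known.

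Markers of mesothelium had the lowest median difference of all lists, in favour of vWAT. Of 20 markers 19 were tested and 18 of these were higher in vWAT, none in BAT, with a median log2 difference of -3.90 (-2.85 without the 4 genes listed at 0 in BAT). Among the 19, 14 passed the limit through vWAT only. The summed value of the 20 markers was 84.0 to 84.6 FPKM in BAT and 694 to 745 FPKM in vWAT, and *Upk1b*, *Upk3b*, *Krt8*, *Bnc1* and *Muc16* were listed at 0 in every BAT library. *Upk1b* and *Upk3b*, uroplakins that coat urothelium and mesothelium, were at 80.6, 81.4 and 91.3 FPKM and 36.7, 36.6 and 40.6 FPKM in vWAT. *Lrrn4*, a membrane protein used as a mesothelial marker, was at 0.0124, 0.0125 and 0 FPKM in BAT and 33.5, 35.5 and 38.9 FPKM in vWAT (log2 difference -5.19, SE 0.0799, adjusted p = 2.4e-07). The mesothelial surface protein *Msln* was lower than these, with 0.228, 0.507 and 0.199 FPKM in BAT and 3.71, 4.46 and 5.94 FPKM in vWAT. *Krt18*, *Krt7* and *Krt8*, keratins of simple epithelia, were at 23.2 ± 3.94, 15.97 ± 3.70 and 17.0 ± 2.92 FPKM in vWAT and at most 0.206 FPKM in BAT. *Slpi*, a secreted protease inhibitor, was at 9.76, 9.23 and 7.42 FPKM in BAT and 244, 274 and 254 FPKM in vWAT (log2 difference -4.72, SE 0.0993, adjusted p = 5.6e-07). *Aldh1a2*, which makes retinoic acid, was at 6.84 ± 0.740 FPKM in BAT and 47.6 ± 0.843 FPKM in vWAT (log2 difference -2.64, SE 0.0778, adjusted p = 2e-06). *Krt19* (5.15 ± 0.501 and 7.87 ± 2.09 FPKM) lost its call under trimmed-mean scaling and when any library but vWAT replicate 2 was left out (log2 difference -0.60 to -0.32), and *Sulf1* (61.1 ± 1.68 and 72.8 ± 3.93 FPKM) was not called. The mesothelial markers moved with the visceral transcription factors above, several of which mesothelium also expresses. *Wt1* and *Bnc1* are counted among these markers and are also named among those factors. The part of mesothelial cells in the differences of the factors was not tested.

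The gene with the largest difference of all was *Calca*, which encodes the hormone calcitonin and the neuropeptide CGRP (minus strand of chromosome 7 from 114631478 to 114636357). It was at 1.33, 1.09 and 1.91 FPKM in BAT and 259, 247 and 298 FPKM in vWAT (log2 difference -6.79, SE 0.134, adjusted p = 4.9e-07). Its promoter and that of *Upk3b* are the following windows of 250 bases, taken and marked as above.
*Calca*, minus strand, chr7:114636358-114636607: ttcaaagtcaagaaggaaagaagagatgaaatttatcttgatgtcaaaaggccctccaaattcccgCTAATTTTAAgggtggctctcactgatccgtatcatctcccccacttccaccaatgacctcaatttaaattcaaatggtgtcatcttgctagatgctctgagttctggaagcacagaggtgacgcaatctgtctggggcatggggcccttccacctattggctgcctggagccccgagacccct
*Upk3b*, plus strand, chr5:136038246-136038495: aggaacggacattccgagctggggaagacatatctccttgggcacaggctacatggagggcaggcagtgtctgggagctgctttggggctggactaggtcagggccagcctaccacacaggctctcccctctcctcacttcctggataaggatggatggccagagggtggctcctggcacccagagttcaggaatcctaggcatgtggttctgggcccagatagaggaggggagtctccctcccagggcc
*Calca* holds one MEF2 match and 4 CpG, and *Upk3b* holds neither motif and 2 CpG. Of the 30 genes that head the vWAT direction 18 had an entry, of which 2, *Cxcl13* and *S100a8*, hold CAGCTG and 1, *Calca*, the MEF2 motif. Other genes of the rule were *Star*, which carries cholesterol into mitochondria for steroid synthesis, at 0.510, 0.510 and 0.260 FPKM in BAT and 71.5, 84.7 and 87.9 FPKM in vWAT. *Pnoc*, the precursor of the peptide nociceptin, was listed at 0 in BAT and at 35.2, 36.8 and 39.9 FPKM in vWAT. *Cxadr*, an adhesion protein of epithelial junctions, was at 0.810, 0.677 and 0.822 FPKM in BAT and 53.0, 54.9 and 59.5 FPKM in vWAT. *Angptl7*, an angiopoietin-like secreted protein, was listed at 0 in BAT and at 29.9, 27.5 and 34.1 FPKM in vWAT. The 3 vWAT libraries lay close together for each of these genes. *S100a9* and *S100a8*, calcium-binding proteins abundant in neutrophils, behaved differently, with *S100a9* listed at 0 in BAT and at 1.04, 175 and 91.0 FPKM in vWAT. *S100a8*, named here because its protein pairs with that of *S100a9*, was at 2.46, 0.933 and 2.19 FPKM in BAT and 3.55, 184 and 77.6 FPKM in vWAT. Both were thus high in vWAT replicates 2 and 3 only, and in siH19 cells at d0 no vWAT library exceeded 2.04 FPKM for *S100a9* or 1.97 FPKM for *S100a8*. The adjusted p of *S100a9* was 0.039, and it rose to 0.086 to 0.11 when any library but vWAT replicate 1 was left out. That of *S100a8* was 0.046 and rose to 0.09 to 0.13 in the same 5 fits.

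*Ucp1* and *Cidea* were close to 0 in both depots at d0, whereas other genes of mature brown adipocytes were measured. *Ucp1*, the uncoupling protein of brown fat mitochondria, was listed at 0.0304, 0.0307 and 0 FPKM in BAT and at 0 in vWAT. *Cidea*, a lipid droplet protein of brown fat, was at 0.136, 0.0458 and 0.0496 FPKM in BAT and 0.0838, 0 and 0.0432 FPKM in vWAT. Neither was tested, nor were *Elovl3* (at most 0.374 FPKM) and the coactivator gene *Ppargc1a* (0.658, 0.915 and 1.99 FPKM in BAT and 0.279, 0.654 and 0.435 FPKM in vWAT). Of 19 brown effector genes 10 were tested, 3 were higher in BAT and 4 in vWAT, with a median of -0.18. *Dio2*, the deiodinase that activates thyroid hormone, was at 4.87, 4.44 and 5.71 FPKM in BAT and 17.6, 14.1 and 14.0 FPKM in vWAT (log2 difference -1.43, SE 0.119, adjusted p = 0.00014), and *Adrb3*, the beta-3 adrenergic receptor, at 13.4 ± 1.93 and 26.0 ± 2.63 FPKM. The members higher in BAT were *Cox8b*, *Kcnk3* and *S100b*, with 1.61 ± 0.0901, 1.87 ± 0.141 and 1.21 ± 0.132 FPKM in BAT and 0.339 ± 0.162, 0.964 ± 0.307 and 0.114 ± 0.0497 FPKM in vWAT. Of 24 transcriptional regulators 18 were tested, 3 were higher in BAT and 6 in vWAT. *Prdm16*, which commits cells to the brown fate, was at 1.47, 1.67 and 1.60 FPKM in BAT and 0.472, 0.775 and 0.340 FPKM in vWAT (log2 difference 0.76, SE 0.124, adjusted p = 0.0029). In contrast *Nfia*, a factor that opens brown fat chromatin, was at 4.79, 5.13 and 5.56 FPKM in BAT and 15.3, 15.8 and 14.4 FPKM in vWAT (log2 difference -1.39, SE 0.0751, adjusted p = 2.1e-05).

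Common adipogenic genes were more often higher in vWAT. Of 30 such genes 29 were tested, 16 were higher in vWAT and 3 in BAT, with a median of -0.45 (-0.32 relative to all genes), and with trimmed-mean scaling the numbers were 14 and 5. *Retn*, the adipokine resistin, was at 8.31, 7.07 and 7.51 FPKM in BAT and 105, 108 and 109 FPKM in vWAT (log2 difference -3.65, SE 0.0633, adjusted p = 3.8e-07). The desaturase gene *Scd1* was at 52.1, 58.9 and 60.3 FPKM in BAT and 508, 479.9 and 528 FPKM in vWAT (log2 difference -3.12, SE 0.0655, adjusted p = 5.6e-07). *Cidec*, which enlarges lipid droplets, and *Dgat2*, the last enzyme of triglyceride synthesis, were at 5.84 ± 1.00 and 10.4 ± 2.49 FPKM in BAT and 38.7 ± 6.12 and 52.7 ± 3.29 FPKM in vWAT. The lipases of stored fat, *Pnpla2* and *Lipe*, and the droplet coat gene *Plin1* followed (log2 difference -1.16, -0.98 and -0.64). The master regulator *Pparg* was at 42.5, 46.2 and 46.2 FPKM in BAT and 51.4, 53.6 and 48.6 FPKM in vWAT and was not called. The same held for *Adipoq* at 206 ± 19.9 and 249 ± 8.21 FPKM and *Fabp4* at 1995 ± 84.1 and 2536 ± 21.5 FPKM. *Cebpa* was at 151 ± 4.799 FPKM in BAT and 120.1 ± 2.21 FPKM in vWAT, not called on the deposited scale and higher in BAT with trimmed-mean scaling. The early factors *Cebpb* (180.1 ± 5.96 and 95.8 ± 12.99 FPKM), *Cebpd* (11.97 ± 0.453 and 7.66 ± 0.308 FPKM) and *Ebf1* (63.3 ± 7.15 and 32.3 ± 4.06 FPKM) were the members higher in BAT. Of 52 respiratory chain subunits, all tested, 3 were higher in vWAT and 0 in BAT, and 49 were not called. Their summed value was 9836 to 10327 FPKM in BAT and 10810.5 to 11143 FPKM in vWAT, with a median log2 difference of -0.14, close to that of all genes.

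Precursor and stromal markers were called in both directions, with 9 of 30 higher in BAT and 10 in vWAT. Of the list 63.3% was called, beside 31.2% of all genes, of which 10.2% were higher in BAT and 21.0% in vWAT. *Thy1*, a surface protein of fibroblasts, was at 528, 554 and 507 FPKM in BAT and 90.1, 84.2 and 84.5 FPKM in vWAT (log2 difference 2.60, SE 0.0472, adjusted p = 3.9e-07). The chemokine gene *Cxcl14* was at 202, 187 and 182 FPKM in BAT and 31.9, 35.1 and 34.4 FPKM in vWAT (log2 difference 2.46, SE 0.0568, adjusted p = 7.9e-07). *Nt5e*, the ectonucleotidase CD73, was at 1.12, 1.14 and 1.16 FPKM in BAT and 23.7, 25.4 and 24.7 FPKM in vWAT (log2 difference -3.58, SE 0.0646, adjusted p = 3.9e-07). *Cd24a* and *Cd34*, surface proteins used to sort white fat precursors, were at 0.749 ± 0.0864 and 2.99 ± 0.523 FPKM in BAT and 9.31 ± 0.926 and 14.3 ± 0.4503 FPKM in vWAT. The receptors of platelet-derived growth factor went in opposite directions, with *Pdgfra* higher in vWAT (log2 difference -1.18, SE 0.0463, adjusted p = 6.1e-06) and *Pdgfrb*, which pericytes also carry, at 115 ± 1.37 FPKM in BAT and 70.1 ± 2.07 FPKM in vWAT (log2 difference 0.71, SE 0.0372, adjusted p = 1.9e-05). Of the precursor genes the study followed, *Ly6a* (log2 difference 0.76, SE 0.0936, adjusted p = 0.00083) and *Tgfb2* (log2 difference 0.73, SE 0.110, adjusted p = 0.0021) were higher in BAT and *Gata2* (log2 difference -1.26, SE 0.153, adjusted p = 0.00076) in vWAT. *Dlk1* (51.0, 41.7 and 43.8 FPKM in BAT and 45.2, 51.0 and 60.8 FPKM in vWAT) and *Runx2* (8.57, 10.1 and 12.9 and 8.43, 9.31 and 8.02 FPKM) overlapped between depots and were not called.

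Contractile genes of smooth muscle and pericytes were mostly higher in BAT. Of 20 genes 19 were tested, 12 were higher in BAT and 3 in vWAT, with a median of 0.73 (0.85 relative to all genes). *Cnn1*, calponin, was at 329, 333 and 304 FPKM in BAT and 76.3, 50.9 and 54.9 FPKM in vWAT (log2 difference 2.41, SE 0.146, adjusted p = 3.5e-05). *Acta2*, smooth muscle actin and the usual sign of myofibroblasts, was at 1495, 1519 and 1369 FPKM in BAT and 544, 470.2 and 473 FPKM in vWAT (log2 difference 1.56, SE 0.0699, adjusted p = 1e-05). *Lmod1* and *Actg2* were at 14.1 ± 0.735 and 62.0 ± 5.09 FPKM in BAT and 2.75 ± 0.532 and 16.4 ± 3.80 FPKM in vWAT. *Myh11*, the myosin of mature smooth muscle, was low in both depots (1.28 ± 0.172 and 0.838 ± 0.130 FPKM), not called on the deposited scale and higher in BAT with trimmed-mean scaling. In vWAT *Mylk*, myosin light chain kinase, was higher (log2 difference -1.66, SE 0.0715, adjusted p = 9.1e-06), as was *Kcnj8*, a potassium channel gene of pericytes (0.225 ± 0.0868 and 3.38 ± 0.455 FPKM). The remaining member higher in vWAT was *Des*, also counted in the skeletal muscle list, whose call was lost in several alternatives as given above. Of 18 endothelial markers 10 were tested, 3 were higher in vWAT and 1 in BAT. *Pecam1* was at 3.92, 3.20 and 2.78 FPKM in BAT and 3.24, 4.13 and 2.39 FPKM in vWAT. Of 14 Schwann cell and neural markers 4 were tested, 3 were higher in BAT and 1, *Mbp*, myelin basic protein, in vWAT (1.01 ± 0.344 FPKM in BAT and 7.48 ± 1.15 FPKM in vWAT). Those higher in BAT included *Ncam1*, an adhesion protein also of muscle cells, at 49.5 ± 4.36 FPKM in BAT and 16.6 ± 0.675 FPKM in vWAT. *S100b*, counted above among the brown effector genes, is also a member of this list.

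Immune and inflammatory genes were more often higher in vWAT. Of 20 macrophage markers 18 were tested and 15 were higher in vWAT, none in BAT (median -0.88). *C1qa*, *C1qb* and *C1qc*, the chains of complement C1q, were at 4.45 ± 0.493, 7.03 ± 1.44 and 4.15 ± 0.990 FPKM in BAT and 19.5 ± 2.16, 27.0 ± 2.42 and 18.7 ± 1.22 FPKM in vWAT. *Cd68*, a lysosomal protein of macrophages, was at 13.8, 14.4 and 14.3 FPKM in BAT and 34.9, 40.5 and 36.2 FPKM in vWAT. *Adgre1*, which encodes the F4/80 antigen, was at 3.10, 3.74 and 4.28 FPKM in BAT and 4.73, 4.23 and 4.25 FPKM in vWAT and was not called. Of 37 chemokines and cytokines 30 were tested, 20 were higher in vWAT and 6 in BAT, with a median of -1.26. *Cxcl13*, which attracts B cells, was at 1.52, 2.00 and 2.06 FPKM in BAT and 69.7, 76.9 and 71.8 FPKM in vWAT (log2 difference -4.69, SE 0.0919, adjusted p = 4.9e-07). The cytokine genes *Il11* and *Il33* were at 13.9 ± 0.241 and 6.55 ± 1.26 FPKM in BAT and 135 ± 21.5 and 57.3 ± 5.30 FPKM in vWAT. *Il6* was at 63.8, 58.7 and 58.8 FPKM in BAT and 194, 276 and 277 FPKM in vWAT (log2 difference -2.01, SE 0.140, adjusted p = 6.4e-05). Higher in BAT were *Tslp* (log2 difference 1.49, SE 0.104, adjusted p = 6.5e-05) and *Cxcl12* (log2 difference 0.93, SE 0.0472, adjusted p = 1.6e-05). *Csf1*, the growth factor of macrophages, was at 1998, 2015 and 2156 FPKM in BAT and 1274, 1255 and 1266 FPKM in vWAT.

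Of 20 stromal complement genes 17 were tested, 12 were higher in vWAT and 1, *Cd59a*, in BAT (median -0.75). *C3*, the central component of complement, was at 124, 119.6 and 143 FPKM in BAT and 697, 769 and 699 FPKM in vWAT (log2 difference -2.48, SE 0.0751, adjusted p = 2.2e-06). *Clu*, clusterin, was at 22.2, 22.3 and 22.4 FPKM in BAT and 289, 288 and 304 FPKM in vWAT (log2 difference -3.66, SE 0.0374, adjusted p = 1.1e-07). The call of *Cd59a* (log2 difference 0.41) was lost without BAT replicate 1 or 3 or vWAT replicate 2 or 3 (adjusted p = 0.066 to 0.099), which leaves no member higher in BAT. Of 37 interferon-stimulated genes 31 were tested, and 15 were higher in vWAT and none in BAT (median -0.55). Their level varied between replicates, as *Irf7*, an interferon regulatory factor, was at 4.22, 8.43 and 5.37 FPKM in BAT and 22.7, 31.4 and 17.3 FPKM in vWAT. *Oasl1* was at 0.453, 1.54 and 0.924 FPKM in BAT and 4.44, 11.7 and 7.52 FPKM in vWAT. For both genes replicate 2 was the highest library of either depot. The higher levels of macrophage genes in vWAT moved with the chemokine, complement and interferon genes, and their part in these differences was not tested.

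Matrix genes differed in both directions. Of 44 collagen genes 29 were tested, 13 were higher in BAT and 8 in vWAT, and the summed value was 17688 to 18718 FPKM in BAT and 14375 to 15052 FPKM in vWAT. The 3 chains of collagen V, which starts fibrils, were all higher in BAT, with *Col5a1* at 396 ± 17.2 and 218 ± 2.12 FPKM, *Col5a2* at 647 ± 21.8 and 369 ± 4.39 FPKM and *Col5a3* at 132 ± 0.525 and 51.7 ± 2.13 FPKM. *Col12a1*, a fibril-associated collagen of tendon and muscle, was at 186, 176 and 153 FPKM in BAT and 37.5, 36.8 and 44.2 FPKM in vWAT (log2 difference 2.09, SE 0.0968, adjusted p = 1.2e-05). Chains of collagen VI went in both directions, since *Col6a1*, *Col6a2* and *Col6a3* were higher in BAT (log2 difference 1.15 for *Col6a3*). *Col6a5* and *Col6a6* were higher in vWAT, *Col6a5* with 0.0288, 0.0761 and 0.0210 FPKM in BAT and 8.63, 8.92 and 9.55 FPKM in vWAT. Of the basement membrane chains *Col4a5* and *Col4a6* were higher in vWAT (log2 difference -1.14 and -2.78). The far more abundant *Col4a1* was at 1203, 1299 and 1271 FPKM in BAT and 1273, 1297 and 1257 FPKM in vWAT and was not called. *Col3a1*, the most abundant collagen mRNA, was at 9045, 9429.9 and 8809.7 FPKM in BAT and 7744, 8071 and 7488 FPKM in vWAT and was not called.

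Of 60 matrix glycoproteins and proteoglycans 54 were tested, 23 were higher in BAT and 18 in vWAT. *Aspn*, asporin of cartilage and tendon, was at 32.8, 34.6 and 36.5 FPKM in BAT and 1.38, 1.497 and 2.03 FPKM in vWAT (log2 difference 3.77, SE 0.107, adjusted p = 1.7e-06). *Tnc*, tenascin C, was at 477, 508 and 468 FPKM in BAT and 122, 129 and 133 FPKM in vWAT (log2 difference 1.91, SE 0.0491, adjusted p = 1.1e-06). *Npnt*, nephronectin, was at 41.4, 43.3 and 41.4 FPKM in BAT and 4.95, 5.24 and 4.69 FPKM in vWAT. In vWAT the secreted phosphoprotein *Spp1*, osteopontin, was at 931, 831 and 773 FPKM against 105, 97.3 and 92.9 FPKM in BAT (log2 difference -3.09, SE 0.0785, adjusted p = 1.1e-06). *Fbln1*, fibulin 1, and *Dcn*, decorin, were at 23.3 ± 0.505 and 349.7 ± 11.99 FPKM in BAT and 116 ± 6.43 and 777 ± 35.6 FPKM in vWAT. *Eln*, elastin, was at 9.25, 9.58 and 10.01 FPKM in BAT and 35.3, 36.2 and 37.5 FPKM in vWAT (log2 difference -1.81, SE 0.0539, adjusted p = 2e-06). *Fn1*, fibronectin, was at 1264, 1149 and 1033 FPKM in BAT and 1929.6, 1933 and 1926 FPKM in vWAT.

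Members of the signalling families differed in both directions. Among Wnt ligands, *Wnt16* (8.93, 8.35 and 8.62 FPKM in BAT and 0.444, 0.335 and 0.492 FPKM in vWAT) and *Wnt5a* (40.4, 42.1 and 38.3 and 14.4, 14.1 and 17.1 FPKM) were higher in BAT. *Wnt4* (0.731, 0.618 and 0.466 and 11.7, 11.6 and 12.2 FPKM) was higher in vWAT. The secreted antagonists also divided, with *Sfrp1* at 294, 301 and 297 FPKM in BAT and 113, 97.3 and 105 FPKM in vWAT (log2 difference 1.49, SE 0.0567, adjusted p = 5.4e-06). *Frzb* was at 2.49, 2.38 and 2.197 FPKM in BAT and 13.2, 12.5 and 10.2 FPKM in vWAT (log2 difference -1.95, SE 0.107, adjusted p = 2.4e-05). *Axin2*, a target of beta-catenin, was at 0.237, 0.542 and 0.355 FPKM in BAT and 4.87, 2.65 and 3.50 FPKM in vWAT (log2 difference -1.74, SE 0.188, adjusted p = 0.00046). Of 53 Wnt pathway genes 33 were tested, and 12 were higher in BAT and 7 in vWAT (57.6% called). Over all genes 31.2% were called, 10.2% higher in BAT and 21.0% in vWAT. Of 53 TGF-beta and BMP genes 41 were tested, and 15 were higher in BAT and 11 in vWAT (63.4% called). Higher in BAT were the BMP antagonists *Grem1*, at 5.93 ± 0.608 FPKM in BAT and 0.583 ± 0.122 FPKM in vWAT, and *Chrdl1*, at 19.1 ± 2.33 and 2.03 ± 0.0802 FPKM. The ligand gene *Tgfb3* was at 80.3, 78.3 and 77.7 FPKM in BAT and 12.1, 10.99 and 12.1 FPKM in vWAT (log2 difference 2.65, SE 0.0525, adjusted p = 4.9e-07). In vWAT the ligand genes *Gdf6* (0.353, 0.437 and 0.401 FPKM in BAT and 18.5, 18.6 and 19.6 FPKM in vWAT) and *Bmp4* (log2 difference -1.54, SE 0.0887, adjusted p = 2.8e-05) were higher, together with *Bmper*, a BMP-binding protein (log2 difference -1.85, SE 0.0702, adjusted p = 5.4e-06).

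Of 21 FGF ligands and receptors 12 were tested, 6 were higher in vWAT and 3 in BAT. The called share was 75% in this list, 71.4% in the IGF system, 64.3% among retinoid genes and 54.2% among guidance genes. Over all genes it was 31.2%, 10.2% higher in BAT and 21.0% in vWAT. *Fgf1*, a growth factor ligand also counted among the mesothelial markers, was at 0.308, 0.611 and 0.249 FPKM in BAT and 23.2, 30.05 and 24.6 FPKM in vWAT (log2 difference -4.28, SE 0.139, adjusted p = 2.7e-06). *Fgf10*, a stromal growth factor, was at 13.4 ± 0.307 FPKM in BAT and 33.4 ± 0.558 FPKM in vWAT. *Fgf7* was at 168 ± 2.93 FPKM in BAT and 78.7 ± 3.27 FPKM in vWAT. In the IGF system, with 6 of 14 genes higher in vWAT and 4 in BAT, the ligands were opposed. *Igf1* was at 30.6, 37.1 and 38.8 FPKM in BAT and 194, 180.2 and 183 FPKM in vWAT (log2 difference -2.36, SE 0.0895, adjusted p = 5.4e-06), in contrast to *Igf2*, given above. The receptor gene *Igf1r* was higher in BAT (log2 difference 0.76, SE 0.0944, adjusted p = 0.00086). The binding protein gene *Igfbp3* was at 24.4, 23.9 and 29.2 FPKM in BAT and 246, 231 and 265 FPKM in vWAT (log2 difference -3.21, SE 0.0883, adjusted p = 1.5e-06). Retinoid genes were higher in vWAT for 8 of 14 and in BAT for 1. Those higher in vWAT included the retinaldehyde dehydrogenases *Aldh1a1* (log2 difference -2.01, SE 0.0929, adjusted p = 1.2e-05) and *Aldh1a3* (log2 difference -1.63, SE 0.0472, adjusted p = 1.9e-06). The member higher in BAT was *Cyp26b1*, which degrades retinoic acid, at 6.99, 6.65 and 7.31 FPKM in BAT and 1.09, 1.00 and 1.04 FPKM in vWAT (log2 difference 1.96, SE 0.0759, adjusted p = 5.8e-06). Of 60 axon guidance genes 48 were tested, 18 were higher in vWAT and 8 in BAT. The semaphorin *Sema3a* was at 0.202, 0.339 and 0.732 FPKM in BAT and 7.49, 10.6 and 10.5 FPKM in vWAT. *Sema7a* was at 47.2, 46.98 and 44.2 FPKM in BAT and 18.2, 21.9 and 20.0 FPKM in vWAT.

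Imprinted genes were compared because the study links *H19* to paternally expressed genes (PEGs). Of 35 PEGs 24 were tested, 7 were higher in BAT, 3 in vWAT and 14 were not called, with a median of 0.08 (0.20 relative to all genes). The called share was 41.7% of the tested PEGs, beside 31.2% of all genes, of which 10.2% were higher in BAT and 21.0% in vWAT. Beside *Igf2*, *Nnat*, neuronatin, was higher in BAT at 27.8, 26.4 and 30.9 FPKM against 2.81, 5.68 and 5.07 FPKM (log2 difference 2.45, SE 0.209, adjusted p = 0.00015). *Peg3* and *Peg10* were at 3.50 ± 0.366 and 12.1 ± 0.735 FPKM in BAT and 2.01 ± 0.160 and 8.02 ± 0.689 FPKM in vWAT. *Dio3*, which inactivates thyroid hormone, was at 101, 77.9 and 86.9 FPKM in BAT and 200.1, 194 and 187 FPKM in vWAT (log2 difference -1.13, SE 0.0915, adjusted p = 0.00012). The zinc finger gene *Plagl1* was also higher in vWAT (log2 difference -0.88, SE 0.194, adjusted p = 0.01). *Mest* was at 17.8, 18.4 and 20.3 FPKM in BAT and 14.2, 18.4 and 20.8 FPKM in vWAT and was not called. Of 36 maternally expressed genes 24 were tested, and 29.2% of the tested genes were called, close to the 31.2% of all genes. Of the called genes 2, *H19* and *Dhcr7*, were higher in BAT and 5 in vWAT. Those higher in vWAT included *Grb10*, a brake on insulin and IGF signalling (log2 difference -1.05, SE 0.0968, adjusted p = 0.00022). *Dhcr7* (log2 difference 0.39) fell under the 1.3-fold limit without BAT replicate 2 or vWAT replicate 2 (0.36 and 0.35), and without BAT replicate 2 this leaves *H19* alone. *Igf2r*, which clears IGF2, was at 10.1 ± 0.713 FPKM in BAT and 9.39 ± 0.617 FPKM in vWAT and was not called. Neither *Cdkn1c* (4.18 ± 0.724 and 2.46 ± 0.844 FPKM) nor *Meg3* (82.7, 55.8 and 95.6 FPKM in BAT and 101, 113 and 107 FPKM in vWAT) was called. *Cdkn1c* was called higher in BAT with trimmed-mean scaling or without vWAT replicate 2 (log2 difference 0.75), and *Meg3* higher in vWAT without BAT replicate 3 (-0.65). *Slc22a3* and *Gpr1* were under the limit.

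Of 49 cell cycle genes 14 were called (28.6%, close to the 31.2% of all genes), 11 higher in vWAT and 3 in BAT, and without vWAT replicate 3 the number higher in vWAT was 17. The D-type cyclins *Ccnd1* and *Ccnd2* were higher in BAT, *Ccnd1* at 28.5, 28.8 and 28.7 FPKM in BAT and 9.19, 9.75 and 8.23 FPKM in vWAT (log2 difference 1.56, SE 0.0688, adjusted p = 9.7e-06). Their partner kinase *Cdk4* was higher in vWAT at 354 ± 6.38 and 498 ± 18.7 FPKM, a call lost with trimmed-mean scaling. *Cdk6* was at 0.494, 0.550 and 0.540 FPKM in BAT and 2.31, 2.14 and 2.63 FPKM in vWAT (log2 difference -1.13, SE 0.0908, adjusted p = 0.00012).

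**Figure D4:**
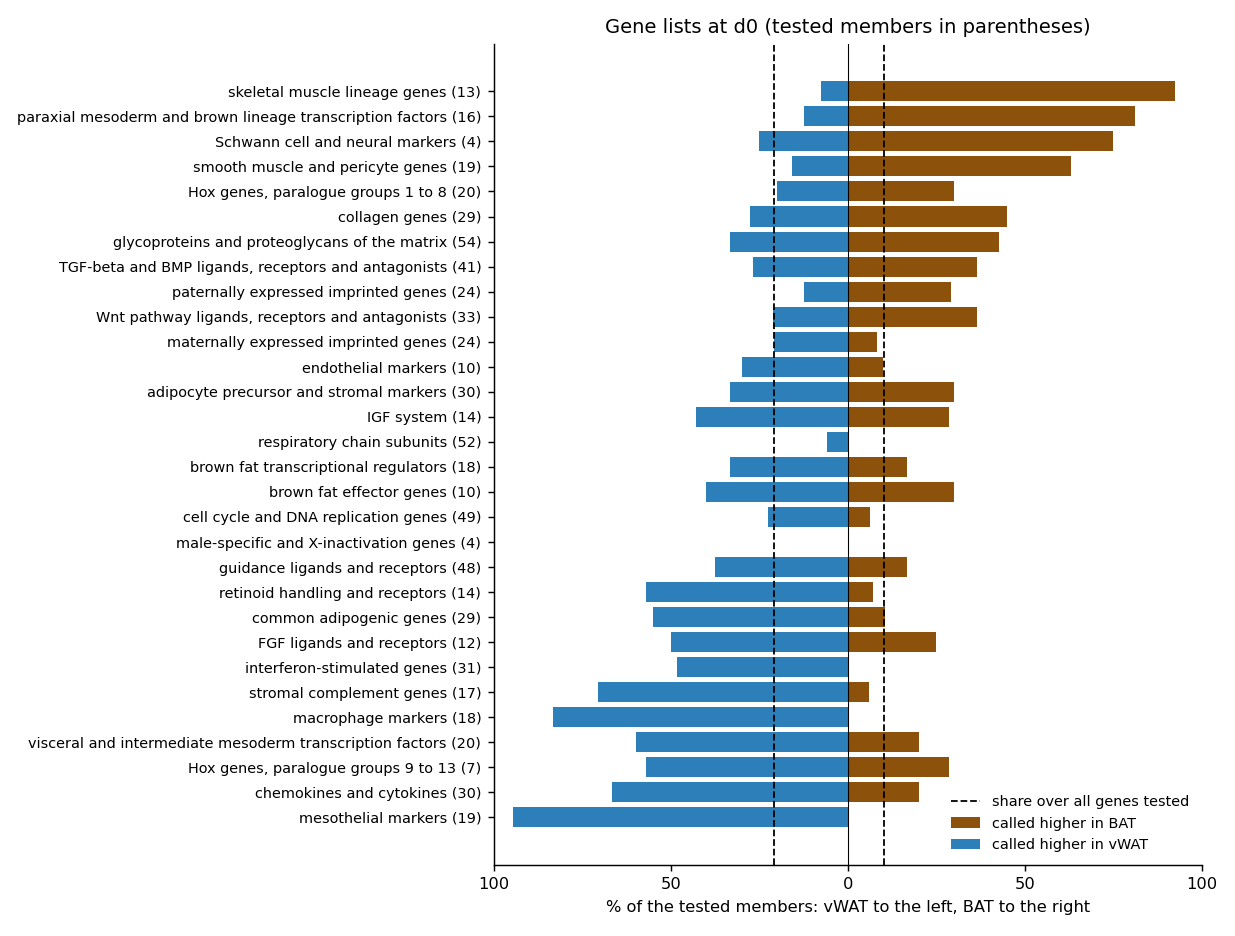
Share of the tested members of each gene list called higher in BAT (bars to the right) or in vWAT (bars to the left), in percent, for the 30 lists with at least 4 tested members, ordered by median log2 difference. Dashed lines give the shares over all genes, 10.2% for BAT and 21.0% for vWAT. Skeletal muscle and paraxial mesoderm genes lie furthest to the BAT side, and mesothelial and macrophage genes have the longest bars on the vWAT side.

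The same depots were compared in the 6 siH19 libraries at d0, which share no library with the siCtrl comparison and have the same confounding of depot and batch. There 3972 of 13055 genes were called (30.4%), 1282 higher in BAT (9.82%) and 2690 in vWAT (20.6%). Of 12819 genes tested in both, 3986 were called in siCtrl and 3873 in siH19 cells, and 2965 had the same direction, 74.4% of the first set and 76.6% of the second, with 4 genes in opposite directions. Pearson r of the log2 differences was 0.87 across these genes, which are not independent. *Mylpf* was at 394, 484 and 511 FPKM in BAT and 0.310, 4.39 and 7.28 FPKM in vWAT. *Calca* was at 0.474, 0.881 and 1.21 FPKM and 268, 264 and 309 FPKM in these cells, and *Tbx15* at 20.4, 23.6 and 18.0 FPKM and 0.247, 1.11 and 0.0890 FPKM. Muscle genes were again higher in BAT for 12 of 13, and mesothelial markers higher in vWAT for 17 of 19. The interferon-stimulated genes were higher in vWAT for 33 of 34, with *Irf7* at 2.60, 4.36 and 2.05 FPKM in BAT and 49.0, 67.7 and 28.9 FPKM in vWAT. *Dio2* was not called in siH19 cells, at 4.67, 5.61 and 4.26 FPKM in BAT and 8.02, 16.1 and 5.41 FPKM in vWAT. Whether these differences between siCtrl and siH19 cells exceed error was not tested.

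After 3 days of induction 6378 of 13120 genes (48.6%) differed between siCtrl cells of the depots, 2162 higher in BAT (16.5%) and 4216 in vWAT (32.1%). Of 12366 genes tested at both times, 1618 of the 3680 called at d0 (44.0%) were called in the same direction at d3, which is 27.1% of the 5971 called at d3, and 753 were called in the opposite direction. Contractile genes were among the latter, as 13 of 17 smooth muscle and pericyte genes were higher in vWAT at d3 and 2 in BAT. *Cnn1* was at 13.6, 12.8 and 24.2 FPKM in BAT and 44.7, 43.4 and 30.5 FPKM in vWAT. Common adipogenic genes were higher in BAT for 20 of 29 at d3, and respiratory chain subunits for 51 of 52. *Cidec* was at 3457, 3686 and 3755 FPKM in BAT and 1637, 1702 and 1519.9 FPKM in vWAT, the reverse of its order at d0. Of 14 paraxial mesoderm and brown lineage factors tested at d3, 10 were higher in BAT and 2 in vWAT. Single genes had the same direction as at d0, *Lhx8* at 12.8, 12.3 and 10.9 FPKM and 0, 0.0258 and 0.0652 FPKM, *Wt1* at 0.0413, 0.103 and 0.0770 FPKM and 27.6, 28.8 and 27.0 FPKM and *Calca* at 1.25, 0.903 and 0.768 FPKM and 284, 329 and 264 FPKM in BAT and vWAT. The depot difference changed between d0 and d3 for 53.0% of 14111 genes tested in the 12 siCtrl libraries (interaction of depot and day, adjusted p under 0.05).

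**Figure D5:**
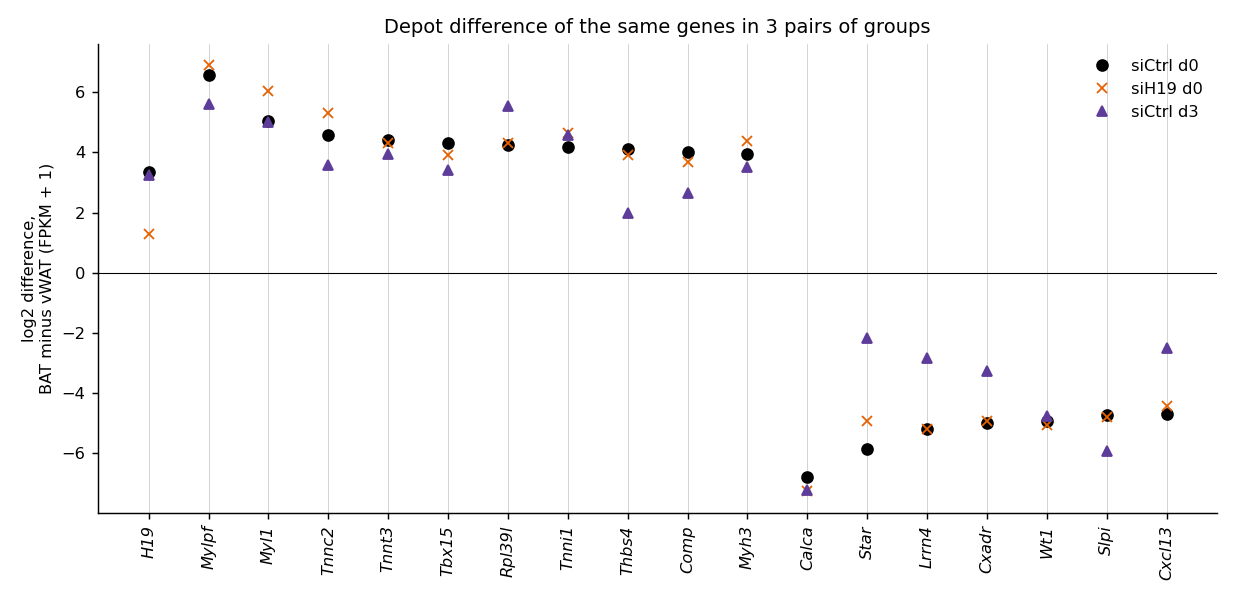
Log2 difference (y axis, BAT minus vWAT) of *H19* and of the genes with the largest differences at d0 in siCtrl cells at d0, siH19 cells at d0 and siCtrl cells at d3, without the genes listed at 0 in every library of a depot. The direction is the same in all 3 pairs of groups, and *Calca* stays between -7.26 and -6.79 whereas *Star* moves from -5.85 to -2.16 by d3.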

How the data were processed

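RNA sequencing of SVF cells was analysed from the deposited table. Values are FPKM per gene and library, as deposited, and the authors' table names no unit beyond this scale, which was read from the column values and the methods. Per the submitters' processing notes the authors used FastQC 0.10.1, TopHat2 2.0.10, STAR, Cufflinks 2.2.1, DESeq2 and R 3.2.2 with GRCm38.p5. Read length and the use of strand in counting are not settled by the sources used here. Cufflinks shares reads between close copies by a model, so such genes are uncertain, and fragment numbers are unknown, so no counting interval is given.

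Genes that reached an FPKM of 1 in 3 or more of the 6 libraries were tested on log2(FPKM + 1) with limma 3.58.1 in R 4.3.3 (intensity trend), with p-values adjusted by Benjamini and Hochberg over all 13139 genes, and called at an adjusted p under 0.05 and 1.3-fold. Errors are SD over 3 libraries or the SE of the fit. The fit was tested on data simulated for this comparison, of which 12849 genes passed the limit on low values, with 50 genes changed at each fold. It recovered 80% at 1.5-fold, 86% at 2-fold and 100% at 3- and 4-fold, and called 8 unchanged genes. Only genes with a mean log2(FPKM + 1) above 3 were changed, so these rates do not cover genes of lower level. Alternatives were a pseudocount of 0.1, other filters, an unweighted trimmed-mean scaling (M values trimmed by 30% and A values by 5% at each end), other limits, all 12 libraries at d0, a replicate block and leaving out each library.

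The text names *H19*, the 12 called genes of largest change each way without overlap and with a mean of at least 5 FPKM, and up to 4 called genes each way and 2 uncalled genes of each list (255 tested genes), plus 50 tested genes chosen after their values were seen. A few of these genes are not reported here. Members and lists were chosen with earlier results of these data known. No column of the table was left unused. Promoters are from RefSeq (GRCm38.p6). The symbols of 11 list members did not match the table and these were not analysed here.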

Additional observations from a re-analysis of the deposited data

Results flagged for a closer look

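The interaction of depot and day was examined for 25 genes, *H19* and the 12 genes of largest change each way. The depot difference at d0 of 16 of the 25 differed from that at d3 in the 12 siCtrl libraries (limma, adjusted over all 14111 genes), beside 53.0% of all genes tested. All but *H19* were chosen for their difference at d0, which the interaction subtracts. A smaller difference at d3 is thus favoured by the choice, and the values are given as a description. The values given are the log2 difference between depots (BAT minus vWAT) at d3 minus that at d0.

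Among genes higher in BAT at d0, the difference was smaller at d3 for *Tbx15* by an interaction of -0.89 (SE 0.0889), for *Tnnc2* of -1.01 (SE 0.232), for *Comp* of -1.39 (SE 0.146) and for *Thbs4* of -2.11 (SE 0.192). These are a lineage factor, a troponin and a pair of tendon and cartilage matrix genes, and all 4 were still called higher in BAT at d3. *Rpl39l* moved the other way, by 1.29 (SE 0.126), from 4.26 to 5.55.

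Among genes higher in vWAT at d0, the difference was smaller at d3 for *Cxadr* by 1.75 (SE 0.0943), for the chemokine gene *Cxcl13* by 2.199 (SE 0.157), for the mesothelial marker *Lrrn4* by 2.35 (SE 0.133) and for *Star* by 3.69 (SE 0.156). *Slpi* had a larger difference at d3, by -1.19 (SE 0.290). All 5 were still called higher in vWAT at d3.

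For genes listed at 0 in every library of a depot at d0 the value depends on the pseudocount. It was 1.82 for *Pnoc*, 2.31 for *Upk1b*, 2.57 for *Upk3b*, 3.65 for *Angptl7*, 4.89 for *S100a9* and -6.68 for *Gpr153*. *S100a9* stayed under the limit on low values at d3, and the zeros of *Gpr153* do not follow the depot.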

How the results depend on the processing

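The numbers of called genes stayed within 1.5 times of 4096 except where the limit on the change was moved. With no minimum change 6386 genes were called (2018 higher in BAT and 4368 in vWAT), and with a minimum of 2-fold 1252 (414 and 838), while the genes called again in siH19 cells fell from 2965 to 931. Leaving out 1 library gave 3860 to 4013 called genes, 1290 to 1329 higher in BAT and 2563 to 2720 in vWAT. The other alternatives gave 2901 (minimum of 5 FPKM) to 4363 (pseudocount of 0.1) called genes, and trimmed-mean scaling changed the share of calls higher in BAT from 32.8% to 49.4%. With the pseudocount of 0.1 the interaction of depot and day was called for 15 in place of 16 of the 25 genes. With the replicate number as a block 4042 genes were called (1335 and 2707), but same-numbered libraries of the depots did not deviate together (Pearson r across genes 0.02, -0.03 and 0.01), so the numbers are not read as pairs. Of 305 genes selected for naming none changed its direction past the threshold in any alternative, and 9 lost and 10 gained a call with trimmed-mean scaling, 8 lost one with no filter on low values, 3 with the replicate block, and 5 to 10 lost and 1 to 4 gained one when 1 library was left out. The cause of these changes was not tested. Depth in fragments is unknown, FPKM values under 1 are not resolved, and depot and batch cannot be told apart.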
